A study of Mus musculus with 18 samples.

Results

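The genes described here code for proteins that bind, splice or unwind RNA: the Srsf, Hnrnp, Rbm and Ddx genes of the mouse. They were taken from the RefSeq gene table of assembly GRCm38.p6 by symbol, as the protein-coding genes whose symbol starts with Hnrnp, or with Srsf, Rbm or Ddx followed by a digit, together with Rbmx. The rule gave 108 of 21900 protein-coding genes, made up of 11 Srsf, 21 Hnrnp, 39 Rbm (Rbmx included) and 37 Ddx genes. What was measured on them was miR-eCLIP chimeric reads. In this assay RNA is crosslinked by ultraviolet light to Argonaute 2 (Ago2), the protein that carries microRNAs (miRNAs), Ago2 is immunoprecipitated (IP), and the miRNA is ligated to the RNA fragment beside it, so that each read names a miRNA and a place in the genome. Total thymocytes of C57BL/6 mice aged 6 weeks, labelled here as wild type, and of mice labelled as knockouts of miR181a/b-1, of the same age, were irradiated at 254 nm. Each genotype was assayed by Ago2 IP alone and with a further enrichment for miR-181 after the IP (the enriched libraries), with 3 libraries in each of the 4 groups. The knockout genotype is given as B6.Mirc14tm1.1Ankr, mice of both genotypes were kept under SPF conditions, and the labels do not give their sex or whether animals were pooled. The 6 input samples were not analysed here, and nothing in the labels says whether the numbered samples came from separate mice, so that p-values measure only the spread between these samples.

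SR proteins, encoded by the Srsf genes, bind exons and promote their inclusion, and hnRNP proteins bind nascent transcripts and often oppose inclusion. Rbm proteins share an RNA recognition motif and act in splicing, stability and translation, and Ddx proteins are DEAD-box helicases that remodel RNA and RNA-protein complexes. A miRNA guides Ago2 to RNA mainly by pairing of its seed, the bases from 2 to 8 of its 5′ end, and miR-181a is abundant in immature thymocytes, where it is known for tuning T cell receptor signalling.

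The miRNAs on which the results turn are shown with the seed in capitals, because the miR-181 names that the knockout and the enrichment bear on share a seed, and the others set the background on the same genes. The sequences are RefSeq's mature miRNAs of GRCm38.p6, 5′ to 3′. The 4 miR-181 family members have the seed ACAUUCA, miR-17-5p and miR-20a-5p share another, and each of the rest has its own.
miR-181a-5p: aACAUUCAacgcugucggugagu
miR-181b-5p: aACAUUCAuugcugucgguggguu
miR-181c-5p: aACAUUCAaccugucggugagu
miR-181d-5p: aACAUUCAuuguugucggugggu
miR-142a-3p: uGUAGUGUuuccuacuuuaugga
miR-16-5p: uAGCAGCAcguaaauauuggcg
miR-17-5p: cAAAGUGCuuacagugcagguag
miR-20a-5p: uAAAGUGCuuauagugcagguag
miR-30c-5p: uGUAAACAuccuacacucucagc
RefSeq lists the same mature miR-181a-5p for the loci Mir181a-1 and Mir181a-2, and the same miR-181b-5p for Mir181b-1 and Mir181b-2, so a read named miR-181a or miR-181b does not say which locus made it.

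Libraries held from 6832 to 293149 chimeric reads, with the knockout enriched libraries lowest (6832 to 19264) and the wild-type enriched ones highest (194628 to 293149). The deleted hairpins bore out the labels: the span of Mir181a-1 had from 363 to 30836 reads in each wild-type library and 0 in each of the 6 knockout libraries. Lines that repeat a position, strand and miRNA made up between 3.24% and 34.1% of a library, most of all in the wild-type enriched group. Knockout enriched libraries 2 and 3 did not differ detectably (chi-square test over 136 genes, p = 0.154). Every other pair of libraries within a group differed (unadjusted p of at most 0.0299). The chi-square divided by its degrees of freedom was 1.12 for knockout enriched libraries 2 and 3. It was 1.07 for knockout Ago2 IP libraries 2 and 3, which were tested over 1392 genes. The test over 136 genes rested on fewer genes and cannot show that knockout enriched libraries 2 and 3 share a source. Because they may be 1 library deposited as a pair, they were counted as 1 sample, by their mean, in each mean ± SD of the knockout enriched group (n = 2). The tests used all 3 as designed, and their counts with libraries 2 and 3 as 1 sample stand beside them. Of the thymocyte markers 15 of 15 had reads, summing to between 19093 and 22741 RPM in every library. Markers of B cells summed to at most 51.9, those of macrophages and dendritic cells to at most 65.8 and those of erythroid cells to at most 57.9 RPM in any library, and 4 of 5 thymic epithelium markers (Foxn1, Psmb11, Krt5 and Krt8) had 0 reads. All values below are reads on the gene's own strand, and RPM values are those reads scaled to the library's total of chimeric reads in the usual way, so they are shares of a library and not amounts. They count contacts and are not divided by gene length. A change in such reads can follow the amount of the RNA, the share of cells that hold it or its contact with Ago2, and in bulk samples fewer cells of a type and less RNA per cell cannot be told apart.

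Chimeric reads were found on 102 of the 108 genes, 13769 of 1190995 reads in all, with a median of 48.5 reads per gene. The 6 without a read were Ddx25, Ddx4, Rbm11, Rbm31y, Rbm46 and Hnrnpa1l2-ps2. The 5 genes with most reads, Ddx3x (1606), Rbm38 (1316), Hnrnpl (1122), Rbmx (1088) and Ddx5 (649), held 42.0% of them. In the Ago2 IP these genes held 0.999% ± 0.0391 of a wild-type library and 0.951% ± 0.0690 of a knockout library, and after enrichment 1.26% ± 0.0253 (SD, n = 3 each) and 1.21% ± 0.0187 (SD, n = 2). Counted as 3 samples, the knockout enriched libraries gave 1.22% ± 0.0941. The 3 wild-type enriched libraries (lowest 1.24%) lay above the 3 wild-type Ago2 IP libraries (highest 1.04%). Without Rbmx, whose reads lie almost wholly in a snoRNA gene as described below, the wild-type enriched share was 1.12% ± 0.00782 (SD, n = 3), against 0.990% ± 0.0390 in the Ago2 IP.

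In the wild-type Ago2 IP, miR-181 made up 38.6% ± 1.30 of the reads on these genes, and in the knockout 1.88% ± 0.995 (SD, n = 3 each). Over reads in any single protein-coding gene the shares were 30.9% ± 0.940 and 1.39% ± 0.0663. Without Ddx3x the wild-type share on the remaining genes was 34.2% ± 1.498. By group, the wild-type share was 42.3% ± 1.60 on Ddx, 38.6% ± 2.88 on Hnrnp, 36.3% ± 2.01 on Rbm and 28.7% ± 6.99 on Srsf genes. In the enriched libraries miR-181 made up 99.3% ± 0.0589 of the reads on these genes in wild type (SD, n = 3) and 82.0% ± 6.47 in the knockout (SD, n = 2), against 98.9% ± 0.227 and 71.6% ± 0.922 over all genes. Counted as 3 samples the knockout shares were 83.5% ± 5.42 and 71.8% ± 0.753. The genes were chosen with earlier results known, so these sums are given as descriptions with no test.

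The wild-type Ago2 IP reads on these genes named miR-181a-5p 728 times, miR-142a-3p 607 times, miR-181b-5p 136 times, miR-16-5p 85 times and miR-20a-5p 57 times. In the knockout Ago2 IP miR-142a-3p led with 755 reads, 44.4% ± 3.61 of the reads on these genes (SD, n = 3), after 26.6% ± 0.733 in wild type. Over reads in any single protein-coding gene, pooled over libraries, it had 39.4% in the knockout and 27.7% in wild type. The shares of one library add up to a whole, so they do not move independently. In the wild-type enriched libraries miR-181a-5p had 7905 and miR-181b-5p 1296 reads, and miR-181c-5p and miR-181d-5p had 37 and 27. In the knockout enriched libraries miR-181a-5p had 193, miR-181c-5p 80, miR-181b-5p 57 and miR-181d-5p 48 reads. The c and d forms, which come from other loci, thus made up 18.1% ± 1.43 and 9.32% ± 2.52 of the reads on these genes in the knockout (SD, n = 2), against 0.387% ± 0.0889 and 0.282% ± 0.0682 in wild type (SD, n = 3). Counted as 3 samples the knockout shares were 18.5% ± 3.30 and 9.91% ± 3.02. Over reads in any single protein-coding gene, pooled over libraries, the c and d shares were 16.4% and 9.30% in the knockout. In wild type they were 0.697% and 0.427%.

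**Figure D1:**
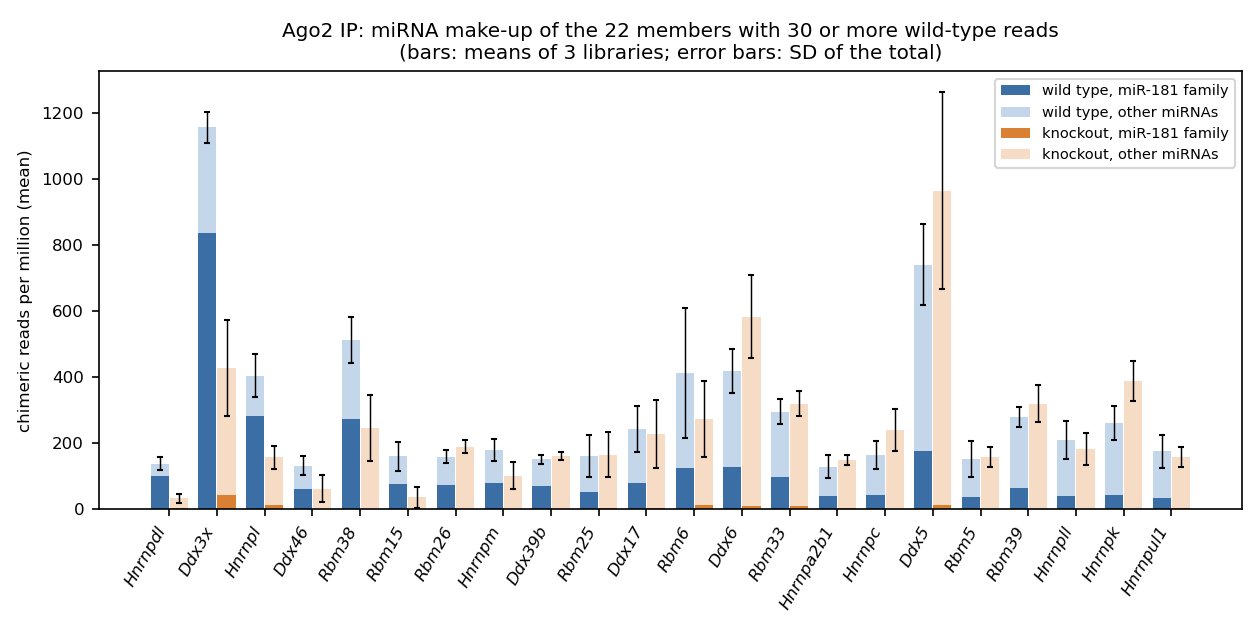
Mean RPM in the Ago2 IP (vertical axis) for the 22 genes with at least 30 wild-type reads, ordered by the wild-type miR-181 share; blue bars are wild type and orange bars knockout, dark parts miR-181 and pale parts other miRNAs, with the SD of the total over 3 libraries. The miR-181 part is 74.2% of wild-type reads in Hnrnpdl at the left and 17.9% in Hnrnpul1 at the right, and is nearly gone in the knockout in each.

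How much of a gene's contact was with miR-181 differed widely between the genes. Of the 22 with at least 30 wild-type Ago2 IP reads, 5 had more than 50% miR-181: Hnrnpdl (23 of 31 reads, 74.2%, 95% Wilson interval 56.8% to 86.3%), Ddx3x (192 of 265, 72.5%, 66.8% to 77.5%), Hnrnpl (61 of 89, 68.5%, 58.3% to 77.2%), Ddx46 (16 of 30, 53.3%, 36.1% to 69.8%) and Rbm38 (60 of 115, 52.2%, 43.1% to 61.1%). The intervals cover counting error only, as do all floors below, because repeated reads need not be independent molecules. At the other end Hnrnpul1 (7 of 39 reads, 17.9%), Hnrnpk (12 of 64, 18.8%) and Hnrnpll (10 of 47, 21.3%) had few, and miR-142a-3p was their most frequent partner. The median of the 22 was 32.9%, against 28.4% over the 1771 genes with as many reads, of which 8.87% had more than 50%. In the knockout the same 22 genes kept between 0 and 8 miR-181 reads each.

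The first comparison asks which contacts were lower in the knockout in the Ago2 IP. Ddx3x, the X-linked helicase that acts in translation initiation, had 1146, 1115 and 1205 RPM in the wild-type libraries and 592, 325 and 365 in the knockout ones. Every knockout library lay below every wild-type library. Hnrnpl, an hnRNP that binds CA-rich RNA and controls the splicing of Ptprc in T cells, had 356, 376 and 477 against 180.95, 118 and 173. Rbm38, a target of p53 that stabilises or represses mRNAs, had 484, 463 and 591 against 280, 325 and 134. Neither gene's groups overlapped.

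These were the 3 genes called of the 20 that had enough reads to be tested (edgeR's quasi-likelihood test over 1545 genes, Benjamini-Hochberg adjusted p of at most 0.05), all lower in the knockout, beside 6.99% of all tested genes called lower. The fold was 2.73 for Ddx3x (log2 -1.45 ± 0.20 SE, adjusted p = 2.56e-08), 2.51 for Hnrnpl (log2 -1.33 ± 0.29, adjusted p = 0.000436) and 1.99 for Rbm38 (log2 -0.99 ± 0.26, adjusted p = 0.00473). The call on Rbm38 was lost with DESeq2 (adjusted p = 0.112) and without knockout Ago2 IP library 3 (log2 -0.72, adjusted p = 0.101), its lowest library. By group, 1 of 6 Ddx, 1 of 6 Hnrnp and 1 of 8 Rbm genes were called, and no Srsf gene had enough reads. The median log2 difference of the 20 genes was 0.11, against 0.01 over all 1545.

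Most of the tested genes did not pass. Ddx5 (p68), a helicase of the miRNA-processing and splicing machinery, had 874, 709 and 637 RPM in wild type and 757, 828 and 1305 in the knockout, groups that overlap. Ddx6, a translational repressor of processing bodies and a partner of the miRNA effector complex, had 399, 492 and 364 against 691, 444 and 614 (log2 0.43 ± 0.23, adjusted p = 0.244 by edgeR). Hnrnpk, a binder of C-rich RNA, had 305, 275 and 205 against 362, 458 and 345; these groups do not overlap, and the difference did not pass (log2 0.48 ± 0.25, adjusted p = 0.249). Ddx3y, the Y-linked copy of Ddx3x, had the largest positive estimate (log2 1.04 ± 0.39, adjusted p = 0.0708). Reads of Ddx3x and Ddx3y, whose sequences are alike, can be exchanged between them in mapping, and both are uncertain to that extent.

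When only chimeras of miRNAs other than miR-181 were counted, 14 of these genes could be tested and 0 were called (edgeR; 0 also by DESeq2, and 0 at an unadjusted p under 0.05), beside 1.72% of 1337 genes called in either direction. Ddx3x had 73 such reads in wild type and 69 with the knockout, a log2 difference of -0.24 ± 0.26 SE with an approximate 95% interval from -0.75 to 0.27. Rbm38 had 55 and 46 (log2 -0.41 ± 0.29). Hnrnpl, with 28 and 26, had too few to be tested. The interval for Ddx3x lies above the estimate of -1.45 found with all chimeras. The fits behind these values share reads and use different library totals, and the difference between them was not tested. A test that does not pass does not show that the remaining contacts were equal.

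**Figure D2:**
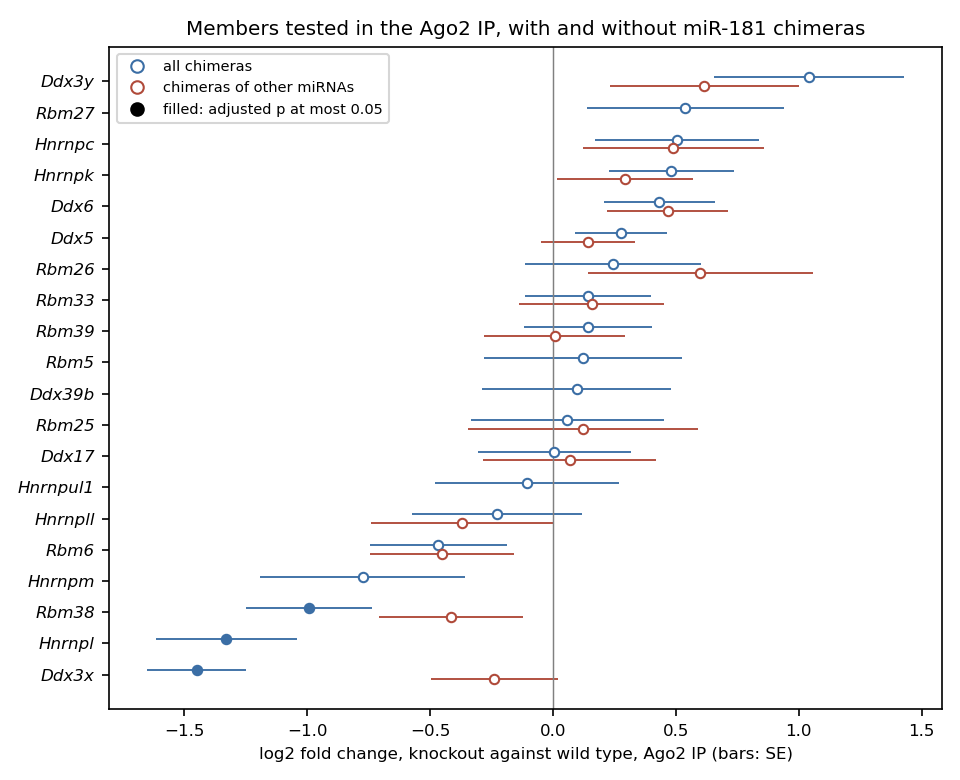
Log2 fold change of chimeric reads, knockout against wild type in the Ago2 IP (horizontal axis), with SE, for the 20 genes tested with all chimeras (blue) and the 14 tested with chimeras of other miRNAs only (red); filled points passed an adjusted p of 0.05. Ddx3x, Hnrnpl and Rbm38 are the filled points at the bottom left, and no red point is filled.

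Reads were joined into sites where neighbouring positions on a strand lay at most 20 nt apart. On these genes this gave 3668 sites, of which 2669 held 1 read, 124 held at least 10 and 12 at least 100. Among the 124, 52 had their middle in the last 25% of the gene span and 20 in the first 25%. Which of them lie in exons or untranslated regions was not analysed here. Of the 20 sites with at least 10 wild-type Ago2 IP reads, 10 had more than 50% miR-181, and 7 were led by miR-142a-3p. Of the 52 genes with at least 50 reads, 11 had 50% or more of them in 1 site, and the median share of the leading site was 23.7%. The matching shares over all sites and all genes are not given here. These counts are therefore descriptions and do not set these genes apart from others.

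The Ddx3x site at chrX:13293131-13293428 (plus strand, GRCm38), 560 nt before the end of the gene span, held 1296 of the gene's 1606 reads. Its Ago2 IP reads numbered 110, 57 and 41 in wild type and 19, 8 and 7 in the knockout, with no overlap of their shares. In wild type 148 of its 208 reads named miR-181a-5p, 20 miR-181b-5p and 18 miR-142a-3p. In the knockout 15 of 34 named miR-142a-3p and 7 miR-181c-5p, and 0 to 2 any other miRNA except miR-16-5p with 4. The reads at the single most frequent position, 13293389, numbered 199, with 120 and 85 at positions 2 nt to either side. In the enriched libraries the site had 368, 364 and 274 wild-type reads and 16, 21 and 11 knockout reads. Of the latter, 29 of 48 named miR-181a-5p and 11 miR-181c-5p.

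**Figure D3:**
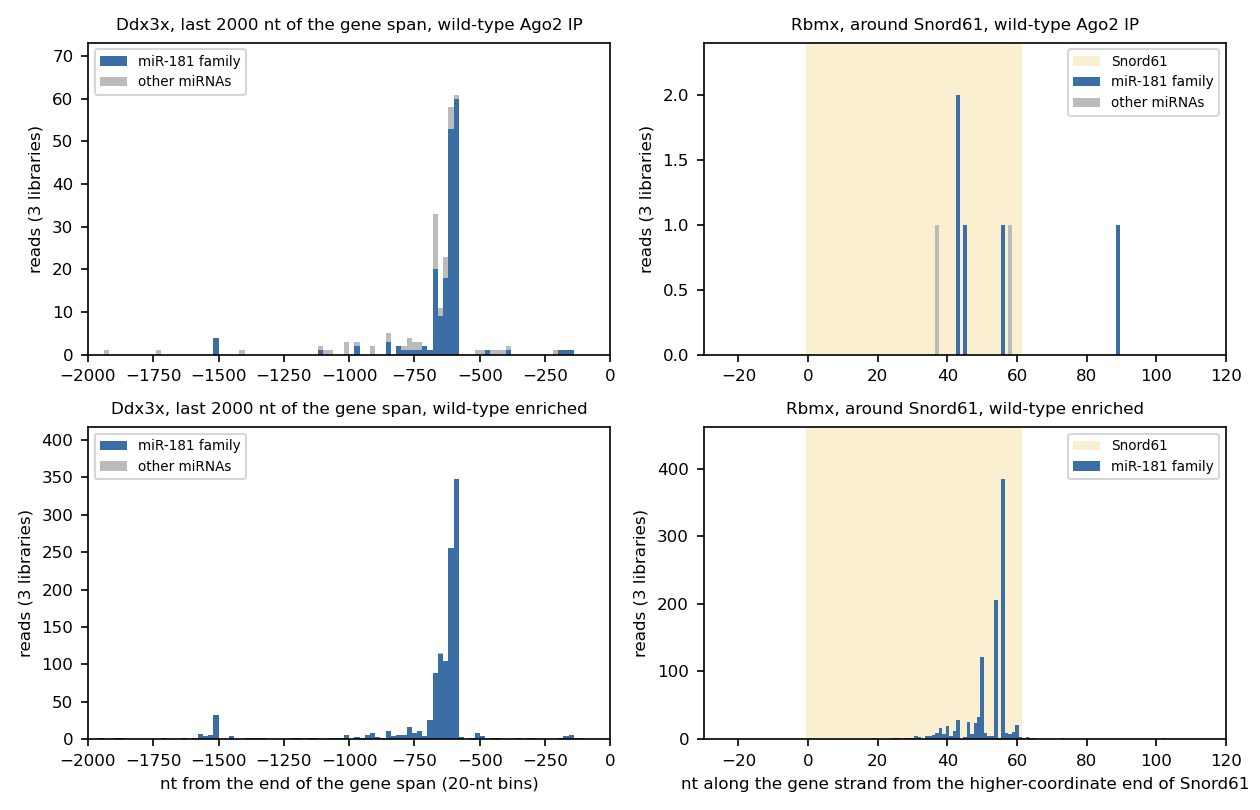
Reads of 3 libraries (vertical axis) by position along Ddx3x, as nt from the end of the gene span in bins of 20 nt (left), and along Rbmx, as nt from the higher-coordinate end of Snord61 on the Rbmx strand (right), for wild-type Ago2 IP (top) and wild-type enriched libraries (bottom); blue is miR-181, grey other miRNAs, and the yellow band the span of Snord61. The Ddx3x reads gather about 600 nt before the end in both kinds of library, and the 1008 enriched reads of the Rbmx site fall almost wholly in the band, which holds 6 wild-type Ago2 IP reads.

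Of the 5 sites of these genes that could be tested in the Ago2 IP, 2 were called, both lower in the knockout (edgeR over 251 sites), where 25.5% of all tested sites were called lower. They were the Ddx3x site (5.21-fold, log2 -2.38 ± 0.28 SE, adjusted p = 4.22e-13) and the Rbm38 site at chr2:173022063-173022238 (plus strand), which starts 172 nt after the start of the gene span. The Rbm38 site had 21, 11 and 9 wild-type reads and 1, 1 and 0 knockout reads, and 39 of its 41 wild-type reads named miR-181. The pooled ratio of wild type over knockout, scaled to the library totals, was 16.0, with an exact 95% counting interval from 4.16 to 137 (edgeR's log2 -3.93 ± 0.61, adjusted p = 8.17e-09). This site passed the filter on reads only through its wild-type libraries, and such entry favours a lower call. Its p-value therefore cannot test a loss apart from that choice, and its values are descriptions. Without wild-type Ago2 IP library 1 this site had too few reads to be tested, and 1 site was called, that in Ddx3x; the same held when repeated lines were counted once. The other 3 tested sites lie in Ddx5 and did not pass.

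The sites of Ddx5 were led by other miRNAs. The site at chr11:106784891-106785049 (minus strand) took 27 of its 36 Ago2 IP reads from miR-142a-3p in wild type, and 27 of 28 in the knockout. The site at chr11:106782480-106782580 had miR-17-5p and miR-20a-5p, which share a seed, with 6 reads each of 25 in wild type, and 0 reads of miR-181. Its reads were 16, 4 and 5 in wild type and 12, 14 and 15 in the knockout (log2 0.93 ± 0.39, edgeR adjusted p = 0.0526). The site at chr11:106781774-106782096 was led by miR-30c-5p with 8 of 37 reads, followed by miR-16-5p with 7. Among sites of miR-142a-3p, that in Srsf1 at chr11:88049143-88049183 (plus strand) had 10 of 11 reads from it in wild type and 25 of 25 in the knockout, and that in Ddx42 at chr11:106228801-106228899 had 18 of 21 and 11 of 11. In Hnrnpk at chr13:58393284-58393356 the counts were 11 of 11 and 7 of 8.

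Other sites held mostly miR-181 reads but too few for a test in the Ago2 IP. Those listed first had at least 10 wild-type Ago2 IP reads. They were thus picked by their wild-type reads and by the miRNA family that the knockout lowers. This choice favours lower knockout counts. Their ratios with exact intervals come from reads pooled over libraries. Their lowest folds set the mean wild-type RPM over libraries against the mean of the knockout libraries' floors. All of these values are therefore descriptions and cannot test a loss. In Hnrnpl the site at chr7:28816049-28816172 (plus strand) had 18 wild-type and 0 knockout reads, at least 1.83-fold lower against a floor of 3 reads per knockout library, and the site at chr7:28820156-28820255 had 25 and 2 (pooled ratio 9.77, exact interval 2.44 to 85.1). The Hnrnph3 site at chr10:63015426-63015526 had 15 and 0 reads (at least 1.31-fold lower) and the Rbm15 site at chr3:107317392-107317474 had 14 and 0 (at least 1.19-fold lower). The Hnrnpdl site at chr5:100038717-100038812 had 23 and 1 reads (pooled ratio 18.0, exact interval 2.92 to 741). For the sites of Rbm7 at chr9:48490845-48490933 and Ddx17 at chr15:79535208-79535325, each with 10 and 1 reads, the ratio was 7.82, with an exact interval up to 339 and a lower bound of 1.112. Ddx46 at chr13:55657858-55657910 had 11 and 0 reads, all of miR-181a-5p. Its mean of 39.9 RPM in wild type lay under the mean knockout floor of 50.4 RPM, so no fold is given.

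The second comparison asks what differed between the genotypes after enrichment for miR-181. Rbmx, the X-linked RBMX (hnRNP G) splicing regulator, had 1279, 1606 and 1295 RPM in wild type and 328, 675 and 732 in the knockout, and Hnrnpl had 1508, 1207 and 1177 against 985, 623 and 585. The groups of neither gene overlapped. Of 27 genes tested 2 were called, both lower in the knockout (edgeR over 2045 genes), beside 2.25% of all tested genes called lower. The fold was 2.98 for Rbmx (log2 -1.58 ± 0.28 SE, adjusted p = 0.000553) and 2.19 for Hnrnpl (log2 -1.13 ± 0.27, adjusted p = 0.0124). With knockout enriched libraries 2 and 3 as 1 sample the same 2 genes were called, of 49 tested (edgeR adjusted p = 0.000279 for Rbmx and 0.00934 for Hnrnpl). With repeated lines counted once neither was called and the estimates turned, to 0.76 for Rbmx and 0.06 for Hnrnpl, and Hnrnpl was also lost with DESeq2 (adjusted p = 0.0746). Repeated lines made up between 27.9% and 34.1% of the wild-type and between 5.84% and 7.91% of the knockout enriched libraries, and their part in the result was not tested.

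The genes that were lower in the knockout Ago2 IP were otherwise not called here. Ddx3x had 1422, 1716 and 1819 RPM after enrichment in wild type, against 1641, 1350 and 1756, and these overlap (log2 -0.41 ± 0.21, edgeR adjusted p = 0.337), though with no filter on low counts Ddx3x was called (log2 -1.10, adjusted p = 0.000516). Rbm38 had 1525, 1598 and 1269 against 1641, 1505 and 1025 (log2 -0.32 ± 0.22, adjusted p = 0.527). Because each value is a share of its own library, and the knockout libraries were far smaller, these values do not compare the amount of contact. By group, 1 of 9 Rbm, 1 of 10 Hnrnp, 0 of 6 Ddx and 0 of 2 Srsf genes were called, and the median log2 difference of the 27 was -0.18, against -0.15 over all genes. Of 13 sites tested 2 were called, both lower (edgeR over 805 sites), where 8.7% of all tested sites were called lower: the Rbmx site (log2 -1.44 ± 0.33, adjusted p = 0.00143) and the Hnrnpl site at chr7:28820156-28820255, with 121, 85 and 55 wild-type and 0, 1 and 1 knockout reads (log2 -2.82 ± 0.76, adjusted p = 0.00715). With knockout enriched libraries 2 and 3 as 1 sample 3 were called, the Ddx17 site being added, of 24 tested. Without any of the 3 wild-type enriched libraries the Hnrnpl site did not pass the filter on reads, which left Rbmx as the 1 site called. With repeated lines counted once the Rbmx site turned to a log2 difference of 0.57 and was not called (adjusted p = 0.261), and the Hnrnpl site kept its call (log2 -2.29). With at most 1 read in a knockout library, the Hnrnpl site passed the filter only through its wild-type libraries. Such entry favours a lower call, so its calls cannot test a loss apart from that choice.

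The Rbmx site at chrX:57391407-57391490 (minus strand) held 1036 of the gene's 1088 reads and lies over Snord61, a box C/D snoRNA gene of 62 nt at chrX:57391448-57391509 inside Rbmx. Of the gene's reads 1027 lay inside the snoRNA span, and 391 of them at 1 position, 57391453, which is 5 nt from the lower-coordinate end of that span. The site's reads fell on 42 positions, and 84.7% of them repeated another line. Inside the span the wild-type Ago2 IP had 4, 0 and 2 reads, with 0 in each knockout Ago2 IP library, 366, 390 and 244 in the wild-type enriched and 4, 13 and 4 in the knockout enriched libraries. Outside it Rbmx had 8, 5 and 2, then 3, 2 and 6, then 9, 17 and 8, then 0, 0 and 1 reads. The enriched values of Rbmx are therefore values of the snoRNA interval, and whether those reads come from the Rbmx transcript or from Snord61 cannot be told apart. Of the 21 site reads in the knockout enriched libraries, 7 named miR-181a-5p, 7 miR-181d-5p, 4 miR-181c-5p and 3 miR-181b-5p, and of the 1008 in wild type 876 named miR-181a-5p and 124 miR-181b-5p.

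A smaller overlap was found in Hnrnpk, whose span holds the miRNA gene Mir7-1. Of its 225 reads 26 lay in that hairpin, 24 of them in a site at chr13:58392800-58392806, and 23 of the 24 named miR-7a-5p. The mature miRNAs that RefSeq gives for the hairpin are shown because the site lies in it.
miR-7a-5p: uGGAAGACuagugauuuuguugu
miR-7a-1-3p: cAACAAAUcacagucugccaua
In the knockout enriched libraries 3, 2 and 3 of the 3, 4 and 6 Hnrnpk reads were in the hairpin.

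**Figure D4:**
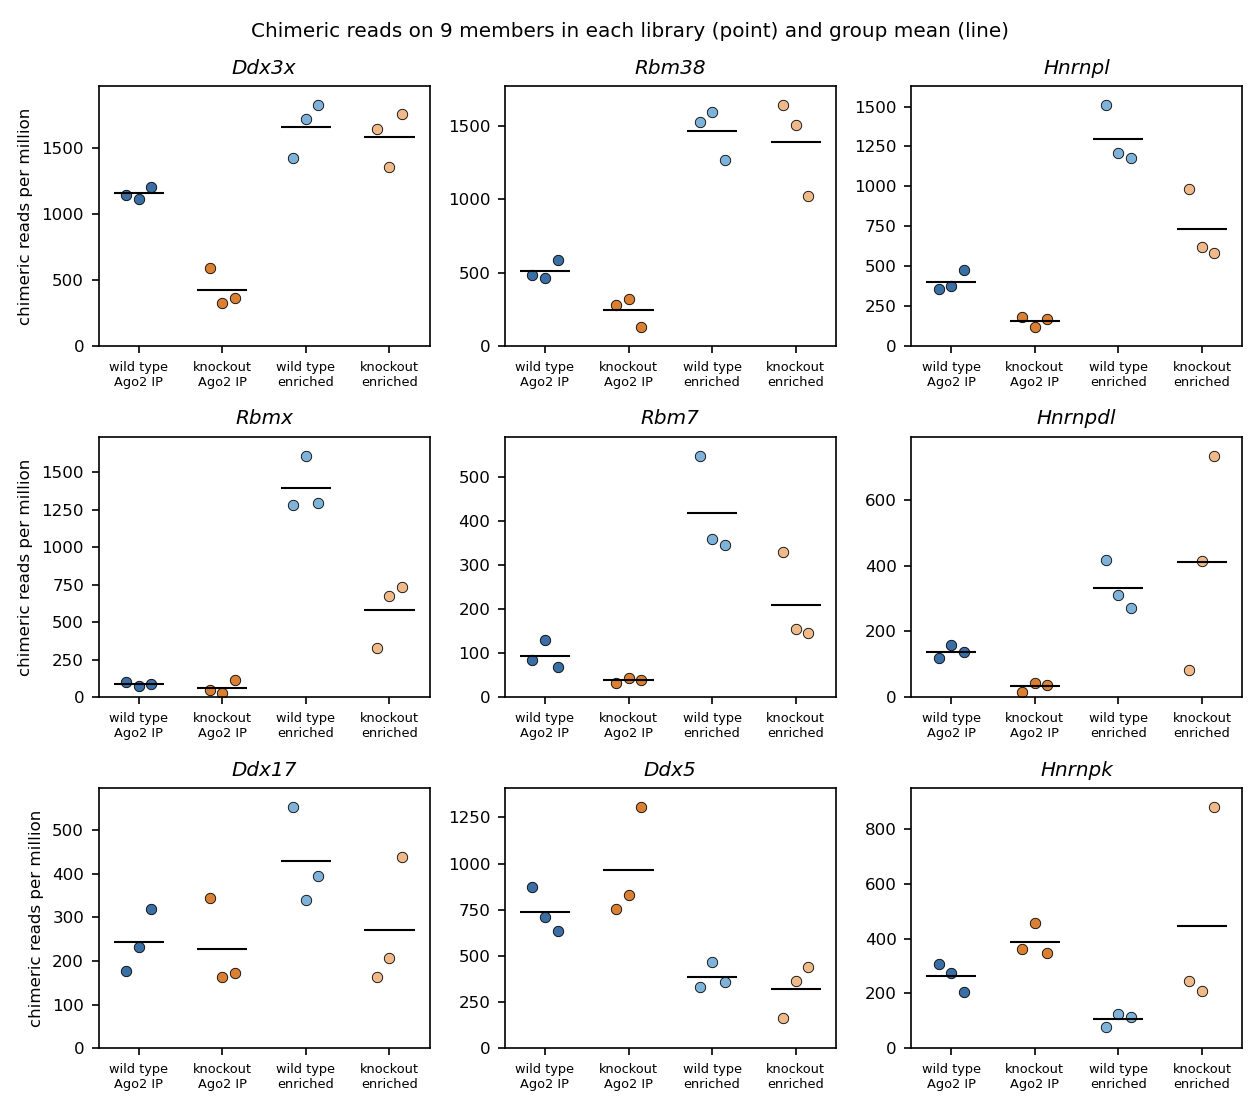
RPM (vertical axes, each from 0) on 9 genes in each of the 12 libraries, as points, with means over the 3 libraries of a group as lines. Ddx3x, Rbm38 and Hnrnpl are lower in the knockout Ago2 IP than in wild type without overlap, Rbmx is near 88.4 in the wild-type Ago2 IP and near 1393 after enrichment, and Ddx5 and Hnrnpk are lower after enrichment in wild type.

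The third comparison asks what the enrichment for miR-181 did to each gene within a genotype. It shares its libraries with the comparisons above, so its values are given beside them and not as separate support. In wild type the genes that rose were Rbmx, Rbm7, Hnrnpl, Rbm38, Hnrnpdl, Srsf11, Ddx17, Ddx39b and Ddx3x, and those that fell were Hnrnpa3, Hnrnpk, Hnrnpll and Ddx5. Rbm7, a subunit of the nuclear exosome targeting complex, had 84.9, 130 and 68.2 RPM in the Ago2 IP and 546, 359 and 344 after enrichment. Hnrnpdl, a paralog of Hnrnpd, had 119, 159 and 136, then 416, 312 and 272. Ddx17 (p72), a close paralog of Ddx5, had 178, 232 and 318, then 553, 339 and 396. In each of these the 3 enriched libraries lay above the 3 others. Ddx5 had 334, 469 and 360 after enrichment, below each of its Ago2 IP values, and Hnrnpk had 78.5, 126 and 113, likewise below.

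Of 39 genes tested in wild type (edgeR over 2914 genes), 9 were called higher and 4 lower, where 18.4% of all tested genes were called higher and 15.8% lower. The fold was 19.2 for Rbmx (log2 4.27 ± 0.22 SE, adjusted p = 7.82e-19), 5.57 for Rbm7, 4.23 for Hnrnpl, 3.70 for Rbm38 and 3.17 for Hnrnpdl. It was 2.96 for Srsf11, 2.45 for Ddx17, 2.26 for Ddx39b, the UAP56 helicase of splicing and mRNA export, and 1.81 for Ddx3x. Ddx3x was not called when repeated lines were counted once (log2 0.19, adjusted p = 0.321). Among those that fell, Hnrnpa3 was 2.73-fold, Hnrnpk 2.08-fold, Hnrnpll 1.92-fold and Ddx5 1.56-fold lower. Each of these 4 lost its call in at least 1 fit without a library: Hnrnpk (adjusted p = 0.0721) and Ddx5 (0.166) without wild-type Ago2 IP library 1, Hnrnpa3 without that library (0.0686) or wild-type enriched library 2 (0.0953), and Hnrnpll without wild-type Ago2 IP library 2 (0.177) or enriched library 1 (0.0994), by edgeR. DESeq2 did not call Ddx5, Hnrnpa3 or Hnrnpll. By group, 3 of 12 Rbm genes rose, 2 of 15 Hnrnp genes rose and 3 fell, 3 of 9 Ddx genes rose and 1 fell, and 1 of 3 Srsf genes rose. The median log2 difference of the 39 was 0.04, against -0.04 over all genes.

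**Figure D5:**
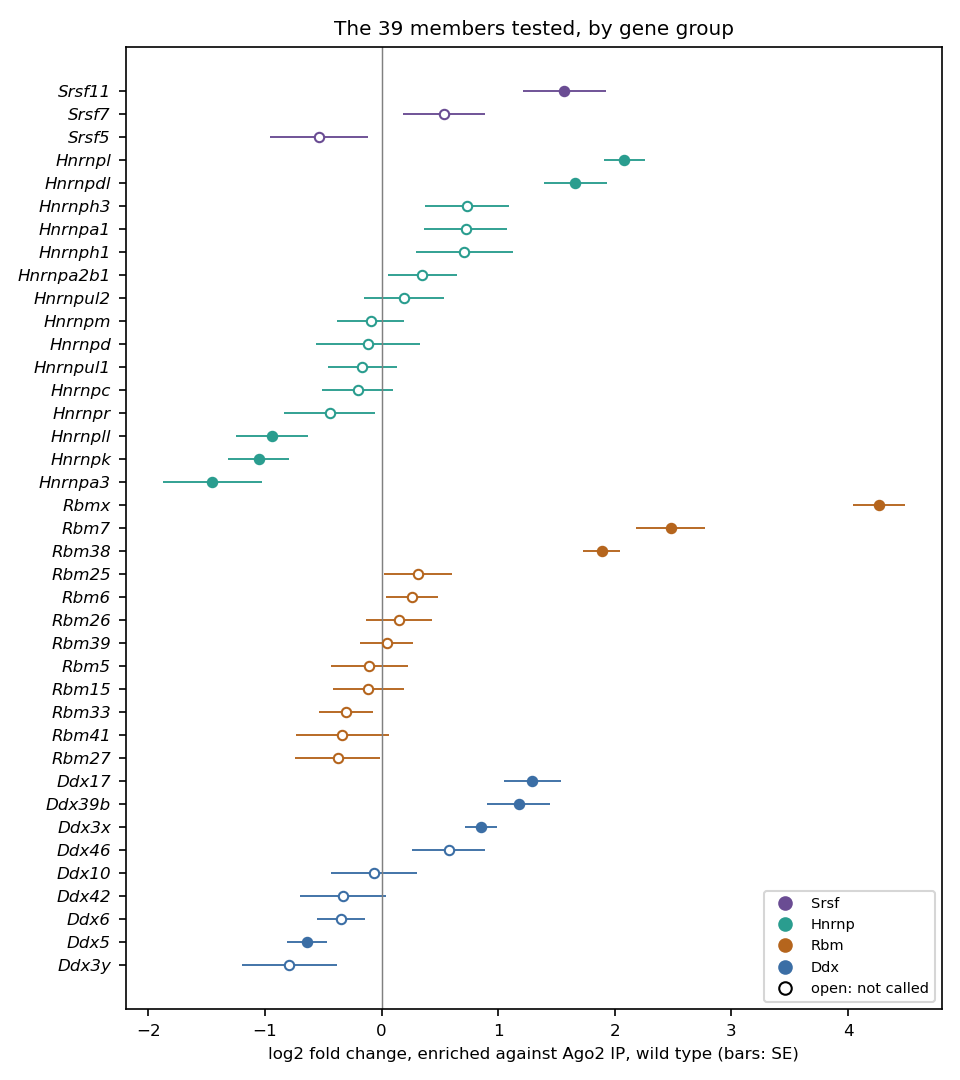
Log2 fold change of chimeric reads, enriched against Ago2 IP in wild type (horizontal axis), with SE, for the 39 genes tested, grouped as Srsf, Hnrnp, Rbm and Ddx; filled points passed an adjusted p of 0.05. Rbmx at 4.27 stands at the right, and in the Hnrnp group Hnrnpl and Hnrnpdl lie above 0 and Hnrnpll, Hnrnpk and Hnrnpa3 below it.

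Among sites, 16 could be tested in this comparison (edgeR over 1200 sites), and 7 were called higher and 3 lower, where 30% of all tested sites were called higher and 26.3% lower. Beside the Rbmx site (log2 4.69 ± 0.39), the Hnrnpl site at chr7:28816049-28816172 had 7, 4 and 7 reads in the Ago2 IP and 264, 180 and 137 after enrichment (log2 2.50 ± 0.34, adjusted p = 2.02e-07). The other Hnrnpl site had 12, 6 and 7, then 121, 85 and 55 (log2 0.89 ± 0.34, adjusted p = 0.0257). The Rbm38 site near the start of the gene had 355, 304 and 184 reads after enrichment (log2 1.88 ± 0.26, adjusted p = 3.80e-07), and the Rbm38 site at chr2:173033506-173033669, of mixed miRNAs, was lower (log2 -0.95 ± 0.38, adjusted p = 0.0324). That last call was lost without wild-type Ago2 IP library 1 (adjusted p = 0.371), without enriched library 1 (0.0797), 2 (0.159) or 3 (0.0777), and with scaling by library size alone (log2 -0.19). The Ddx39b site at chr17:35250692-35250757 (2.45 ± 0.73), the Rbm7 site (2.12 ± 0.46) and the Ddx17 site (1.99 ± 0.46) were higher on the log2 scale, and the Ddx5 sites at chr11:106784891-106785049 (-2.90 ± 0.40) and chr11:106781774-106782096 (-1.61 ± 0.39) lower. The main Ddx3x site did not pass (log2 -0.16 ± 0.20, adjusted p = 0.503). The sign of that estimate rests on edgeR's scaling between libraries. As plain shares of the library totals, its reads given above were higher in all 3 enriched libraries than in all 3 wild-type Ago2 IP libraries. With repeated lines counted once the first Hnrnpl site (log2 0.29, adjusted p = 0.553) and the Ddx17 site (log2 1.04, adjusted p = 0.0515) lost their calls, and with no filter neither Ddx5 site was called (log2 -1.22 and 0.07). The median log2 difference was 0.83 over the 16 sites and 0.35 over all 1200.

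In the knockout, 9 genes could be tested (edgeR over 776 genes), of which 4 were called higher and 1 lower, where 15.2% of all tested genes were called higher and 6.57% lower. Rbmx was 9.80-fold (log2 3.29 ± 0.46 SE, adjusted p = 1.89e-09), Rbm38 6.19-fold, Hnrnpl 5.06-fold and Ddx3x 3.87-fold higher after enrichment, and Ddx5 2.75-fold lower (log2 -1.46 ± 0.40, adjusted p = 0.00278). The call on Ddx5 was lost without knockout enriched library 1 (adjusted p = 0.0845). With knockout enriched libraries 2 and 3 as 1 sample these 5 genes were called and Srsf1, which fell, was added, of 19 tested. The knockout enriched Rbmx reads lay inside the snoRNA interval in all but 1 case, while the knockout Ago2 IP reads of Rbmx, 3, 2 and 6, all lay outside it. With small RNA reads left out Rbmx was not tested. The difference of the enrichment between the genotypes was not tested.

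The Srsf genes had few reads, 649 over 11 genes. Srsf11, a regulator of splice site choice, had 50.9, 43.4 and 159 RPM in the wild-type Ago2 IP and 150, 181.5 and 164 after enrichment, groups that overlap although the gene was called, and 102 of its 153 reads lay in a site at chr3:158011065-158011184, 150 nt before the end of the gene. Srsf7, which takes part in splicing and mRNA export, had 120 reads in all and was not called in either comparison that tested it. Srsf1, the SR protein also known as ASF/SF2, had 15 Ago2 IP reads in wild type and 28 with the knockout, and was too low for a test. Srsf2, Srsf3, Srsf6 and Srsf10 had between 16 and 57 reads each.

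Of 79 other RNA-binding and splicing genes, 32 could be tested in the Ago2 IP, of which 5 were called, all lower in the knockout: the spliceosome subunit Sf3b3 (log2 -1.77), Sfpq (-1.14), Ptbp3 (-1.13), Tardbp (-1.14) and Taf15 (-1.28), by edgeR as above. Among all genes tested in the Ago2 IP 6.99% were called lower. After enrichment 2 of 40 were called, both lower in the knockout, Sfpq (log2 -1.25) and Sf3b3 (-0.97), beside 2.25% of all tested genes called lower. Within wild type 13 of 53 were higher and 8 lower after enrichment, where 18.4% of all tested genes were called higher and 15.8% lower. Sf3b3 (log2 2.17), Ptbp3 (1.999) and Sfpq (1.64) had the smallest p. Within the knockout 4 of 14 were higher and 1 lower, where 15.2% of all tested genes were called higher and 6.57% lower. There Ptbp3 had the smallest p (log2 3.13).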

How the data were processed

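The deposited files hold raw counts: each line is 1 chimeric read, with a genome position, a miRNA name and a strand, in a pair of strand files for each library. The submitters' processing notes name Bowtie2 2.4.5, STAR 2.7.10, SAMtools 1.11, UMI-tools 1.1.1 and bedtools 2.30.0 and the builds mm10 and GRCm38.p6, with no order or role. The gene strand came from RefSeq's promoter table for 94 of the 108 genes and, for 14, from the strand of most reads in no other protein-coding span. Tests used reads lying in exactly 1 protein-coding span, which left out Rbm4, Rbm12 and Rbm14. Counts per gene or site over the whole table were fitted with edgeR 4.0.16 in R 4.3.3 (TMM, filterByExpr with a minimum count of 10, quasi-likelihood F test, only the libraries of the groups compared), tested on simulated data. The filter can be passed on the reads of 1 group alone, and such entry favours a call in which the other group is lower. DESeq2 1.42.0 was an alternative. Python 3.11.15 served the rest. Genes named are Ddx3x, Rbmx, those with most reads and those called of smallest p. Some were named after their values were seen: Srsf genes, Ddx39b, Ddx42, Ddx46, Hnrnph3, Rbm15, Ddx3y and Hnrnpul1. The genes, lists, tests and alternatives were chosen with earlier results of these data known. Leaving out reads in snoRNA, snRNA, scaRNA and miRNA genes was added after the Rbmx site was seen. Libraries within a group were compared by a chi-square test over genes with at least 20 reads in the pair, tested on simulated data. Same-numbered libraries were checked for pairing and did not meet the rule for it, and the main fits were unpaired. Same-numbered Ago2 IP and enriched libraries did correlate best with their own number, weakly (from 0.00594 to 0.224). A replicate block, which takes up that number, was an alternative. Wild type and knockout share no source named by the labels.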

Additional observations from a re-analysis of the deposited data

Results flagged for a closer look

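Reads on the strand opposite to the gene, in no other protein-coding span, were counted over the 12 libraries and lie outside the comparisons. They exceeded 3 reads in 7 genes: Hnrnpd with 13, Hnrnpa3 with 9, Ddx6, Rbm48 and Srsf11 with 6 each, and Hnrnpf and Rbm47 with 4 each. For Ddx6 and Srsf11 this compares with 405 and 153 reads on the gene's strand. The count of 3 reads, which a count of 0 allows, was used because no input was analysed.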

How the results depend on the processing

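Each count of these genes or sites called was refitted with DESeq2, library sizes alone, no filter, repeated lines once, a replicate block, both strands, wider joining, small RNA reads left out and each library left out, and, where the knockout enriched group entered, with its libraries 2 and 3 as 1 sample. That last fit called 2 genes and 3 sites for knockout against wild type after enrichment and 6 genes for enrichment in the knockout. With no filter the counts were 6 genes for knockout against wild type in the Ago2 IP and 6 after enrichment, 8 genes for enrichment in the knockout, and 6, 13 and 19 sites for the Ago2 IP, the enriched libraries and enrichment in wild type. For none of the refits, here or above, is the share called over all genes or sites given. Their counts therefore cannot be set against that share, and a change in them is not a result about these genes. After enrichment, knockout against wild type gave 1 gene with DESeq2, 0 with repeated lines once and 1 with small RNA reads left out. Repeated lines once left 1 site in the Ago2 IP. Leaving out a library gave from 1 to 3 sites in the Ago2 IP and from 1 to 3 after enrichment. Log2 differences turned with repeated lines once, after enrichment: 0.76 for Rbmx, 0.0557 for Hnrnpl, 0.55 for Ddx3x and 0.57 for the Rbmx site. With no filter, enrichment in wild type turned to 0.0703 for the Ddx5 site at chr11:106781774-106782096 and 0.73 for the Rbm38 site at chr2:173033506-173033669. The share of wild-type enriched reads on these genes was 1.13% with repeated lines once, 1.31% with both strands and 1.30% without small RNA reads. The miR-181 share with repeated lines once was 36.7% in the wild-type Ago2 IP and 99.0% after enrichment. The cause was not tested. With the replicate block the counts called were 3, 0, 2, 13 and 5 genes and 2, 2 and 11 sites, against 10 sites without it for enrichment in wild type and otherwise the same counts. Same-numbered wild-type and knockout libraries correlated from -0.138 to 0.0178 in their deviations, so they share only a number. Between Ago2 IP and enriched libraries of the same number the correlations were 0.224, 0.0394 and 0.148 in wild type and 0.0606, 0.00594 and 0.0299 in the knockout, and each library correlated best with its own number. Of the remaining values for single genes and sites, 398 kept direction and call, 27 lost the call and 1 gained it. The knockout enriched libraries, with 6832 to 19264 reads, limit every comparison that uses them.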
